A study of Mus musculus with 12 samples.

Results

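A set of 10 genes of the NF-kappaB system were followed in primary mouse neurons after oxygen-glucose deprivation and after kainic acid. They were chosen by name from the count table, which lists 22899 genes, and all 10 were in it: the inhibitors Nfkbia, Nfkbib, Nfkbie and Nfkbiz, the enzyme gene Tnfaip3, and the subunits Nfkb1, Nfkb2, Rela, Relb and Rel. The 12 RNA-seq libraries formed 4 groups of 3. All came from C57Bl6 primary neurons: OGD (oxygen-glucose deprivation, a culture model of ischaemia), OGD control, KA (kainic acid, spelled Kainac acid in the labels, an agonist of kainate and AMPA receptors, at 100 µM in the medium) and KA control. Both control groups are labelled as having had no treatment; no source used here gives the brain region, age, days in culture, exposure time or recovery.

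NF-kappaB is a family of transcription factors made of paired Rel-domain subunits. At rest, IkappaB proteins hold these pairs in the cytoplasm, and a kinase complex marks IkappaB for destruction when a cytokine, stress or calcium signal arrives. Several inhibitors are themselves targets of NF-kappaB, so their RNA rises once the factor is active and the loop closes. In neurons the system is studied in ischaemia, excitotoxic injury and synaptic plasticity.

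The stretches just upstream of the start of 3 members that are well counted and that differed between KA and KA control are shown first, because each holds a match to the kappaB consensus, the DNA sequence that NF-kappaB dimers bind. They are the 150 bases before the RefSeq start, on the gene's own strand (GRCm38.p6): Nfkbia at chr12:55492648-55492797 (minus strand), Nfkbie at chr17:45555550-45555699 (plus strand) and Rel at chr11:23770970-23771119 (minus strand). Capitals mark the consensus match.
Nfkbia: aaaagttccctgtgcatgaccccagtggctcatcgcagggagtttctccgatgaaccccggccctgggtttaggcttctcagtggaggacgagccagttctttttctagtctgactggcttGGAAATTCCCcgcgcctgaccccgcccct
Nfkbie: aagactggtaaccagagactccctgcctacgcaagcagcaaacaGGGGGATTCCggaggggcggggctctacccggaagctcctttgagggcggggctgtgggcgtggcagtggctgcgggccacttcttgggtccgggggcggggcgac
Rel: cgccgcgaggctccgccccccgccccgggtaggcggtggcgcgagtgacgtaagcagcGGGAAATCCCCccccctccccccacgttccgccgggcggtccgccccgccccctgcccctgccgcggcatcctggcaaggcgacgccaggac
In Nfkbia the match spans bases -29 to -20 before the start, and in Nfkbie bases -106 to -97. In Rel, overlapping matches on both strands together cover bases -92 to -82. RefSeq start sites were at hand for 7 of the 10 members (10 promoters), all but Nfkbiz, Nfkb1 and Relb. Over the 250 bases before those starts, on either strand, 5 of the 7 members had a match (Nfkbia, Nfkbie, Tnfaip3, Nfkb2 and Rel) and 2 had none (Nfkbib and Rela). Per promoter, 7 of the members' 10 had a match, against 7.25% of all 32851 promoters of the same length. Per gene, 8.23% of the 27025 genes with a promoter had a match in at least 1. A match describes these letters only; binding was not measured.

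Of the 10 members, 7 had enough counts to be tested. Nfkbia, Nfkbib, Nfkbie, Nfkb1, Rela and Rel were over the count filter (0.583 CPM, counts scaled to library size) in all 12 libraries. Tnfaip3 passed through the KA libraries alone, so its difference there is partly set by the filter. Nfkbiz had 7 counts in all libraries together, Nfkb2 had 16 and Relb had 1. Some neuronal markers were also sparsely counted: Rbfox3 had 71 counts in total and Syt1 had 187, against 700958 for Stmn2. A few counts in this table are therefore read here as a limit of the measurement and not as a low transcript level.

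Total counts ranged from 12873444 to 21142267 per library, and replicates of a group differed by more than counting noise in every pair. Of the marker sums the neuronal one was largest, at 6070 to 7840 CPM for 10 genes over all libraries, with Stmn2 alone at group means of 2790 to 3970 CPM. Astrocyte markers (9 genes) summed to 79.2 to 220 CPM, and 12 microglial and macrophage markers to at most 13.6 CPM. A low sum can also come from undercounted genes, as read above for Rbfox3 and Syt1. No label says whether replicates came from separate cultures, so tests measure the spread between libraries, which may be technical. In bulk RNA, fewer cells of a type and less RNA per cell cannot be told apart.

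KA was followed by higher RNA of inhibitors and subunits alike. Nfkbia, which encodes IkappaB-alpha, the inhibitor that NF-kappaB itself switches back on, was 4.21-fold higher, and Rel, which encodes the subunit c-Rel, was 7.60-fold higher than in KA control. Nfkbie, encoding IkappaB-epsilon, was 3.53-fold higher. Rela, Nfkb1 and Nfkbib differed by 1.55- to 1.66-fold. The 6 members counted in every group were called higher, as was Tnfaip3, where 35.2% of the 13139 tested genes were called higher and 72.7% were called in either direction (edgeR quasi-likelihood test, Benjamini-Hochberg adjusted p under 0.05); lower calls made up 37.6%. Scaled by library totals instead of TMM, the share of calls that were higher moved from 48.4% to 32.0%, and the tested members were still higher, by 0.38 to 2.67 on the log2 scale.

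Among the inhibitors, Nfkbia was at 16.5, 18 and 19.3 CPM in KA control replicates 1 to 3 and at 76.8, 76.6 and 73.1 CPM in KA replicates 1 to 3. The log2 fold change was 2.07 (SE 0.06, edgeR adjusted p = 7.38e-23). Nfkbia ranked 151 by p and 397 by size of rise among all tested genes.

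Nfkbie counts were lower but moved nearly as far. The KA control libraries held 2.53, 2.49 and 3.12 CPM and the KA libraries 8.40, 10.8 and 9.06 CPM. The log2 fold change was 1.82 (SE 0.14, edgeR adjusted p = 6.34e-13). Nfkbib encodes IkappaB-beta, which is slower to be degraded and is not a classical feedback target. Its mean was 35.7 ± 1.59 CPM without and 55.4 ± 3.73 CPM with KA (SD, n = 3 each), a rise of 0.64 in log2 units (edgeR adjusted p = 3.67e-11). Parts of 2 opposite-strand genes, Ccer2 and Sirt2, overlap 314 and 42 of the 2169 exonic bases of Nfkbib, and the kit does not mark strand, so reads there cannot be assigned to 1 gene.

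Tnfaip3 encodes A20, a ubiquitin-editing enzyme that switches off signalling from cytokine receptors to the IkappaB kinases. Its counts were small: 3, 2 and 4 in KA control and 8, 12 and 11 in KA. Scaled, these were 0.153 ± 0.061 and 0.745 ± 0.148 CPM (SD, n = 3 each). The log2 fold change was 2.25 with a wide 95% interval of 1.36 to 3.15 (edgeR adjusted p = 3.68e-05).

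**Figure D1:**
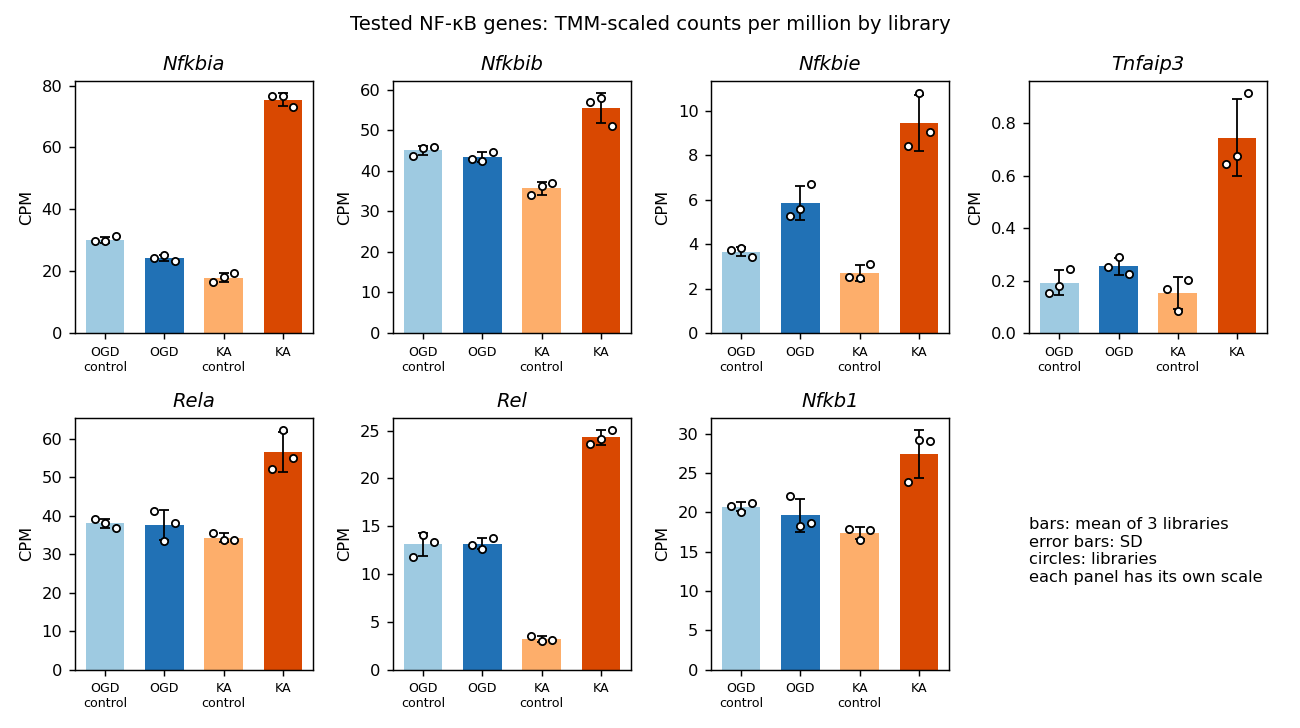
TMM-scaled CPM of the 7 tested members in OGD control, OGD, KA control and KA; bars are means of 3 libraries, error bars the SD, circles the libraries, and each panel has its own axis. In every panel the KA mean lies above the KA control mean. For Rel the KA control mean (3.21 CPM) lies far under the OGD control mean (13.1 CPM).

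Of the subunits, Rel had the largest difference. Its level was 3.54, 2.96 and 3.12 CPM in the KA control libraries and 23.6, 24.1 and 25.1 CPM in the KA libraries. The log2 fold change of 2.93 (SE 0.10, edgeR adjusted p = 3.27e-21) placed it at rank 164 by size of rise. Rela encodes the main transactivating subunit and is present in most cell types. It was at 35.5, 33.6 and 33.7 CPM in KA control and at 52.2, 62.3 and 55.0 CPM in KA. The KA libraries scattered more than the controls. The log2 fold change was 0.73 (SE 0.07, edgeR adjusted p = 7.04e-11).

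Nfkb1 encodes the precursor that is processed to a DNA-binding subunit without a transactivation domain. Its mean went from 17.4 ± 0.75 CPM to 27.4 ± 3.09 CPM, which is 0.67 in log2 units (SE 0.08, edgeR adjusted p = 1.85e-08), with KA replicate 1 at 23.8 CPM, under the other KA libraries at 29.2 and 29.1 CPM. Within a library the ratio of Rel to Rela CPM, which moves with their unequal change and not with the scaling, was 0.0882 to 0.0997 in KA control and 0.387 to 0.457 in KA. The ratio of Nfkbia to Rela went from 0.464 to 0.574 in KA control to 1.23 to 1.47 in KA. In OGD control Rel to Rela was 0.303 to 0.37 and Nfkbia to Rela 0.758 to 0.855. In OGD these ratios were 0.317 to 0.378 and 0.591 to 0.758. For either ratio both OGD groups thus lay above KA control and below KA, and for Rel to Rela they came close to KA.

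The remaining members gave almost no counts. Nfkbiz, whose product IkappaB-zeta is a nuclear cofactor, had 0 counts in each KA control library and 1, 5 and 0 in KA, so that 1 library held most of them. Nfkb2 encodes the precursor used in the non-canonical branch of the pathway; it had 1, 0 and 0 counts in KA control and 3, 2 and 1 in KA. Relb, whose product pairs with the processed Nfkb2 product, had 0 counts in all KA, KA control and OGD libraries, where 0 counts in a group of 3 allow up to 0.0711, 0.0495 and 0.0549 CPM (3 counts per group, counting error only). When the filter was lifted, Nfkbiz had an adjusted p of 0.0147 and Nfkb2 an adjusted p of 0.0708 for KA against KA control (edgeR).

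Markers of neurons and of other cells moved with KA as well, and their called shares are to be read against the 35.2% of all tested genes that were called higher. Summed neuronal markers (10 genes) were 6070 to 6120 CPM in KA control and 7310 to 7840 CPM in KA, with 6 of 9 tested called higher and 1 lower (median log2 fold change 0.51). Summed astrocyte markers (9 genes) were 79.2 to 80.7 CPM in KA control and 202 to 220 CPM in KA, and 5 of the 8 tested were called higher. Summed microglial and macrophage markers (12 genes) were 5.39 to 7.05 CPM in KA control and 10.7 to 13.6 CPM in KA, with 5 of 6 tested called higher; Ptprc had no count and Itgam 1 count in all libraries together. Fibroblast and mural markers (8 genes) went from 6.01 to 6.59 CPM to 19.1 to 19.8 CPM with 4 of 6 higher, and Pdgfrb had no count. Endothelial markers (7 genes) went from 2.36 to 3.09 CPM to 4.82 to 6.38 CPM with 2 of 2 higher. Oligodendrocyte-lineage markers (9 genes) went from 37.1 to 39.7 CPM to 44.3 to 50.2 CPM with 2 of 6 higher, a share near that over all genes. The part of these markers in the NF-kappaB values was not tested.

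After OGD, Nfkbie was called higher and Nfkbia lower, and the other 5 tested members were not called. Over all tested genes 38.1% were called (17.6% higher and 20.5% lower), so 2 of 7 members is near the background share. Nfkbie rose 1.60-fold, its OGD control libraries holding 3.74, 3.82 and 3.42 CPM and its OGD libraries 5.26, 5.56 and 6.72 CPM (log2 fold change 0.68, SE 0.14, edgeR adjusted p = 0.000451). Nfkbia fell, from control values of 29.6, 29.7 and 31.4 CPM to 24.3, 25.3 and 23.2 CPM under deprivation. That is a log2 fold change of -0.32 (SE 0.07, edgeR adjusted p = 0.000314).

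Against OGD control, the RNA of the inhibitors IkappaB-alpha and IkappaB-epsilon went in opposite directions after OGD. Set against KA control instead, both were higher in OGD (log2 0.44 for Nfkbia and 1.11 for Nfkbie). Nfkbib averaged 45.0 ± 1.17 CPM in OGD control against 43.3 ± 1.25 CPM in OGD (SD, n = 3 each). The 95% interval of its log2 fold change against OGD control was -0.18 to 0.06. For the subunits the intervals were -0.17 to 0.12 for Rela, -0.18 to 0.17 for Rel and -0.25 to 0.09 for Nfkb1, so changes beyond these sizes lay outside the 95% intervals. Tnfaip3 had 2, 3 and 4 counts in OGD control and 4, 6 and 4 in OGD, and its interval (-0.72 to 1.48) was too wide to tell a fall from a rise. Nfkbiz and Relb had 0 counts in OGD and 1 each in OGD control, and Nfkb2 had 4 and 5. The called shares of markers after OGD are to be read against the 17.6% of all tested genes called higher and the 20.5% called lower. Among the marker lists, 4 of 9 tested neuronal markers were called lower in OGD and 1 higher. Summed neuronal markers were 7510 to 7730 CPM in the controls and 7620 to 7800 CPM in OGD. Astrocyte markers were called lower in 3 of 8 (sums of 113 to 127 and 90.3 to 102 CPM), oligodendrocyte-lineage markers in 2 of 6 (37.6 to 39.8 and 34.3 to 39.5 CPM) and fibroblast and mural markers in 1 of 6 (20.5 to 22.4 and 15.4 to 18.4 CPM), with none higher. None of 2 endothelial markers (3.59 to 4.58 and 2.85 to 3.07 CPM) or 6 microglial and macrophage markers (4.89 to 7.52 and 5.58 to 7.19 CPM) was called. Their part in the values of Nfkbia and Nfkbie was not tested.

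**Figure D2:**
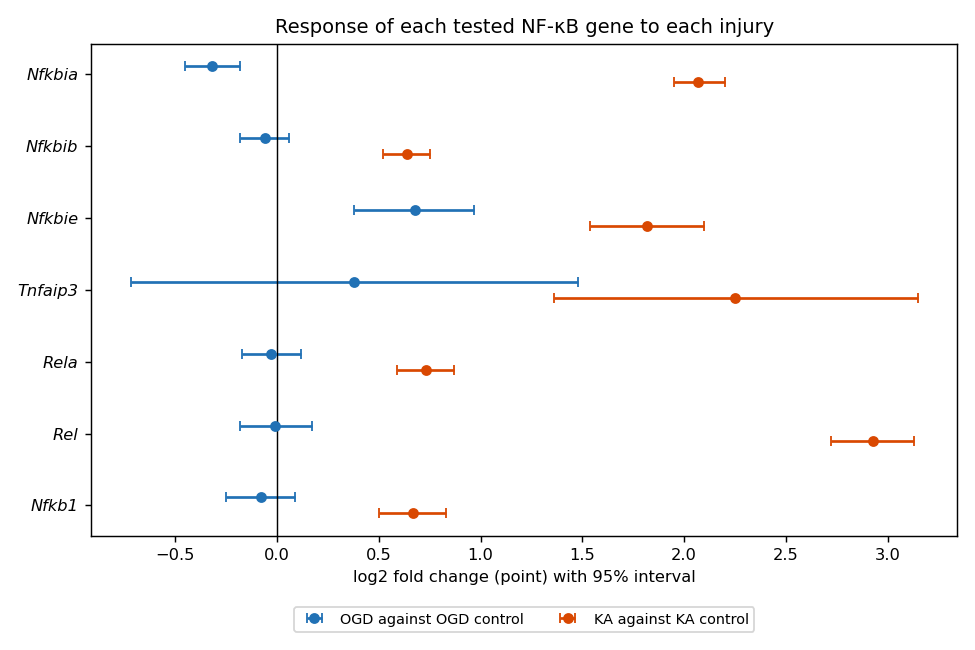
Log2 fold change of each tested member in OGD against OGD control and in KA against KA control, with the 95% interval from the edgeR fit. The KA points run from 0.64 (Nfkbib) to 2.93 (Rel), while 5 of the 7 OGD intervals include 0.

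The responses to the injuries were compared in the same fit, as the log2 fold change in KA minus that in OGD. That difference was called for the 6 members counted in every group and for Tnfaip3, each time with the larger value in KA, where 68.2% of all tested genes were called, 33.8% in this direction and 34.4% in the other. It was largest for Rel (2.93, SE 0.14, edgeR adjusted p = 9.28e-18) and Nfkbia (2.39, SE 0.09, edgeR adjusted p = 5.69e-20). Nfkbie, which rose after both injuries, rose more after KA by 1.14 on the log2 scale (SE 0.21, edgeR adjusted p = 1.55e-05). For Nfkbib, Nfkb1 and Rela the differences were 0.70, 0.75 and 0.76. For Tnfaip3 it was 1.87 (SE 0.74, edgeR adjusted p = 0.0319), a call that was lost with DESeq2 (adjusted p = 0.109) without the count filter (0.0752) and with library totals in place of TMM (0.0707), and also when OGD control replicate 3, OGD replicate 3, KA control replicate 2 or KA replicate 3 was left out (adjusted p from 0.0501 to 0.112).

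The size of the KA response rests on the KA controls, which differed from the OGD controls although neither was treated. Rel was 11.8, 14.1 and 13.4 CPM in OGD control, so KA control was 4.14-fold lower (log2 difference -2.05, SE 0.11, edgeR adjusted p = 3.95e-16). The log2 difference was -0.75 for Nfkbia, -0.33 for Nfkbib, -0.43 for Nfkbie and -0.25 for Nfkb1. Rela and Tnfaip3 were not called, with log2 differences of -0.15 (adjusted p = 0.0625) and -0.38 (edgeR adjusted p = 0.618). In all, 5 of the 7 tested members were called lower and none higher, where 34.2% of tested genes were called lower, 34.5% higher and 68.7% in either direction. Without KA control replicate 2, 3 were called. Experiment, handling and culture cannot be told apart between these groups. Neuronal markers were called lower in KA control in 6 of 9 tested and higher in 1, with sums of 6070 to 6120 CPM against 7510 to 7730 CPM in OGD control. Gad1 and Gad2, markers of inhibitory neurons within that list, had means of 452 and 121 CPM against 1310 and 653 CPM. Fibroblast and mural markers were lower in 4 of 6 (6.01 to 6.59 CPM against 20.5 to 22.4 CPM), and astrocyte markers were lower in 3 of 8 and higher in 2 (79.2 to 80.7 CPM against 113 to 127 CPM). Of the remaining lists, 1 of 6 oligodendrocyte-lineage and 1 of 2 endothelial markers were lower, and none of 6 microglial and macrophage markers was called. The part of these markers in the control difference was not tested.

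Set against OGD control instead, KA still had higher values of the tested members. Rel was 1.84-fold higher (log2 0.88, SE 0.08) where it had been 7.60-fold higher than its own control. Nfkbia was 2.50-fold higher, Nfkbie 2.61-fold, Rela 1.5-fold, Nfkb1 1.33-fold and Nfkbib 1.23-fold. These comparisons share the KA libraries and cross the experiments, and 57.6% of tested genes were called between KA and OGD control, 29.3% higher and 28.3% lower. For OGD the choice of control turned the direction for Nfkbia, which was lower than in OGD control and higher than in KA control (log2 0.44, SE 0.07, edgeR adjusted p = 1.83e-06), and Rel, uncalled against its own control, was 4.12-fold higher than in KA control. Between OGD and KA control 67.3% of tested genes were called, 33.2% higher and 34.1% lower.

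**Figure D3:**
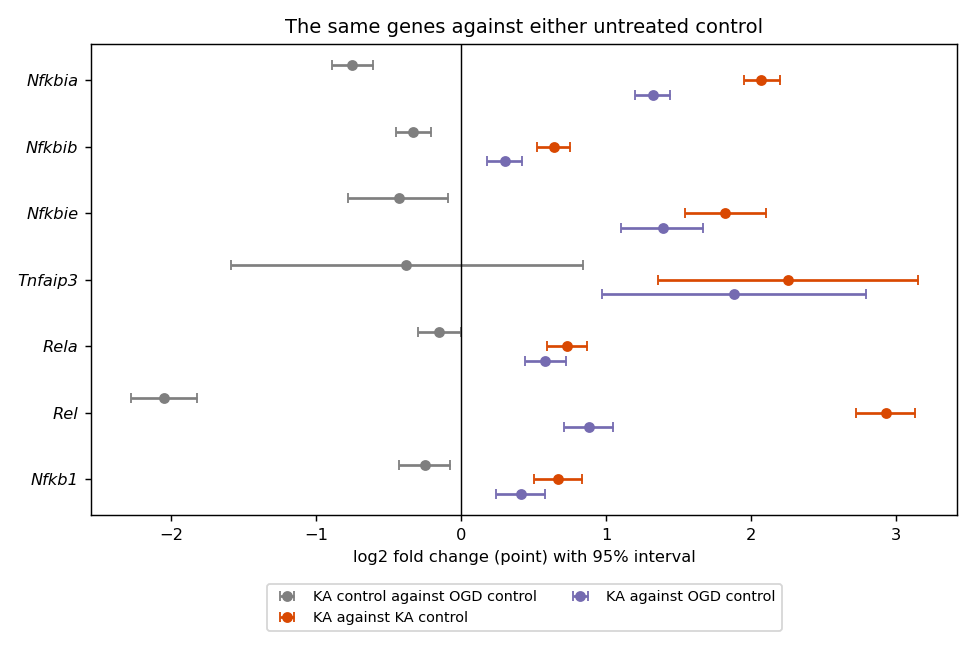
Log2 fold change with the 95% interval for each tested member in KA control against OGD control, KA against KA control and KA against OGD control. For Rel the KA points lie at 2.93 and 0.88 depending on the control, and for Rela at 0.73 and 0.58.

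Levels of different members were compared per kilobase of annotated exon (GENCODE M21). In OGD control Nfkbib stood highest with 20.8 ± 0.534 CPM per kb, followed by Nfkbia (18.8 ± 0.628) and Rela (12.4 ± 0.395). Rel (1.75 ± 0.158), Nfkb1 (1.72 ± 0.046) and Nfkbie (1.2 ± 0.070) formed a lower tier, in which Rel and Nfkb1 did not differ beyond their spread on this scale. Before division by length, Nfkb1 had 20.7 CPM and Rel 13.1 CPM in OGD control. Tnfaip3 (0.0266), Nfkb2 (0.0243), Relb and Nfkbiz lay near the floor. OGD kept Nfkbib, Nfkbia and Rela in that order (20, 15.1 and 12.2 CPM per kb), and Nfkbie, at 1.92 ± 0.253, came level with Rel at 1.76 ± 0.082.

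In KA control the order of the leading members was Nfkbib (16.5 ± 0.742 CPM per kb), Rela (11.2 ± 0.348) and Nfkbia (11.1 ± 0.870), the last of these pairs within their spread, and Rel was the lowest of the 6 well-counted members at 0.430 ± 0.040. In KA, Nfkbia led with 46.9 ± 1.29 CPM per kb against 25.5 ± 1.72 for Nfkbib and 18.4 ± 1.70 for Rela. Rel (3.25 ± 0.102) and Nfkbie (3.09 ± 0.407) were within their spread of each other and above Nfkb1 (2.27 ± 0.256). The exon length counts every annotated transcript, so members with long rarely used exons are understated. For Nfkb1 it was 12061 bases over 10 transcripts and for Rel 7466 bases over 1, so the place of Nfkb1 in the order depends on this length. Undercounting of single genes, as read above for Rbfox3 and Syt1, would also alter the order of members, and the SDs do not cover it.

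Genes of the wider pathway were called in both directions. Of 101 other pathway genes listed by role, 60 were tested. After KA 24 were called higher and 19 lower (40.0% and 31.7%, against 35.2% and 37.6% of all tested genes), with a median log2 fold change of 0.04 against -0.02 over all tested genes. After OGD 7 were higher and 9 lower (11.7% and 15%, against 17.6% and 20.5%), with a median of 0.00 against 0.01.

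Ligands and receptors came first in the pathway and were sparsely counted. Only Tnfsf12, which encodes the cytokine TWEAK, was tested among 9 ligand genes. It fell after KA (log2 fold change -0.66, edgeR adjusted p = 0.047), and 731 of its 1515 exonic bases are shared with a read-through gene. Tnf and Cd40lg had no counts. Of 16 receptor and adaptor genes 11 were tested. After KA 5 rose and 3 fell (median 0.13), where 35.2% of all tested genes were called higher and 37.6% lower. After OGD 1 rose and none fell (median -0.05), where the shares were 17.6% higher and 20.5% lower. Tnfrsf12a, the receptor for TWEAK, rose after KA from 0.519 ± 0.118 to 2.29 ± 0.349 CPM. The adaptor Tradd and the neurotrophin receptor Ngfr fell, with log2 fold changes of -1.60 and -1.45. After OGD the called gene was Myd88, the adaptor of Toll-like and interleukin receptors (log2 fold change 0.63). Its OGD mean of 4.76 CPM lay below its KA control mean of 7.08 CPM. An opposite-strand gene, Acaa1a, overlaps 290 of the 2576 exonic bases of Myd88. Between controls, Tnfrsf12a and Ngfr were lower in KA control (log2 differences -0.78 and -0.87). Tradd and Myd88 were higher there (1.01 and 1.21).

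Kinases that lead to IkappaB went both ways. Of 17 listed, 13 were tested. After KA 2 rose and 3 fell (median -0.15), against 35.2% higher and 37.6% lower over all tested genes. After OGD 2 rose and 4 fell (median -0.04), against 17.6% higher and 20.5% lower. Ikbke, encoding a kinase related to the IkappaB kinases, was 0.673 ± 0.183 CPM in KA control and 2.72 ± 0.331 CPM in KA. It fell after OGD, from 6.02 ± 1.21 to 2.07 ± 0.929 CPM (log2 fold change -1.56, SE 0.20, edgeR adjusted p = 3.25e-07). Its 2 responses differed by 3.57 on the log2 scale (SE 0.36, edgeR adjusted p = 4.70e-10). The untreated controls of Ikbke differed by nearly as much (log2 difference -3.15, SE 0.25, edgeR adjusted p = 1.85e-12), and its KA mean lay below its OGD control mean. Tab1, a partner of the upstream kinase TAK1, had a log2 fold change of -0.72 after KA, and Tbk1 fell after both injuries (-0.32 after KA and -0.21 after OGD). Tab1 and Tbk1 were higher in KA control than in OGD control, with log2 differences of 0.76 and 0.31.

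Ubiquitin enzymes and A20 partners also went both ways, and of 25 listed 17 were tested. After KA 7 were higher and 6 lower (median -0.10), against 35.2% and 37.6% of all tested genes. After OGD 2 were higher and 3 lower (median 0.00), against 17.6% and 20.5%. The lower calls after KA include Cyld, whose mean was over the count filter (0.583 CPM) in KA control alone (0.628 CPM, and 0.285 CPM in KA). Its fall is therefore partly set by the filter. Zc3h12a, which encodes the ribonuclease regnase that degrades cytokine transcripts, rose after KA from 0.689 ± 0.035 to 4.28 ± 0.182 CPM. Traf3, a brake on the non-canonical branch, rose by 1.60 on the log2 scale. Zc3h12a and Traf3 were also lower in KA control than in OGD control, with log2 differences of -1.22 and -1.18. Traf6, the ubiquitin ligase downstream of interleukin and Toll-like receptors, changed by 0.41 after KA and by -0.41 after OGD, and this difference of 0.82 was called (SE 0.09, edgeR adjusted p = 6.29e-09). N4bp1 fell after KA and OGD, with log2 fold changes of -0.35 and -0.27.

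Of the 9 other IkappaB-family genes and modulators 7 were tested. After KA 2 were higher and 3 lower (median 0.09), where 35.2% and 37.6% of all tested genes were. After OGD 2 were higher and 1 lower (median 0.01), where 17.6% and 20.5% of all tested genes were. Nfkbid, encoding the nuclear protein IkappaB-NS, had 12.2 ± 0.321 CPM as its OGD control mean, 15 ± 1.48 in OGD, 3.37 ± 0.575 in KA control and 13.4 ± 2.48 in KA. It rose by 2.02 on the log2 scale after KA and by 0.30 after OGD. Nkrf, encoding a repressor that binds NF-kappaB elements, changed by 0.68 after KA and by -0.17 after OGD. Nkiras2, whose product binds and shields IkappaB, went the other way, with 0.59 after OGD and -0.80 after KA. Of its 3578 exonic bases, 287 are shared with Dnajc7 on the opposite strand. Nkrf was lower in KA control than in OGD control and Nkiras2 was higher (log2 differences -0.37 and 0.43). The OGD mean of Nkrf (67.7 CPM) lay below its OGD control mean (76.2 CPM) and above its KA control mean (58.9 CPM).

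**Figure D4:**
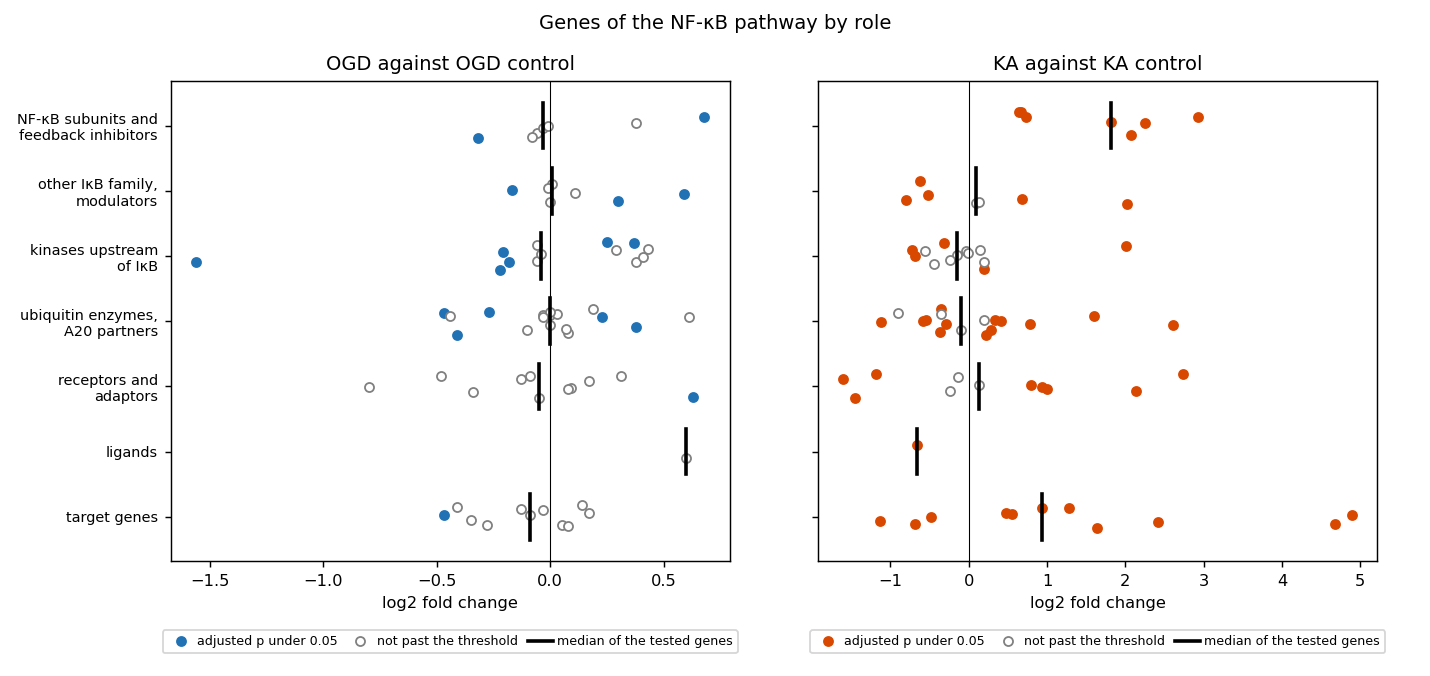
Log2 fold change of each tested gene of the NF-kappaB pathway by role, for OGD (left) and KA (right) against their own controls; filled circles passed the adjusted p threshold of 0.05, open ones did not, and the black bar is the median. The KA median is 1.82 for the members and 0.94 for the target genes and lies between -0.66 and 0.13 for the other roles. The members' median includes Tnfaip3, which passed the count filter through the KA libraries alone, so this median is partly set by the filter.

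Of 25 genes known as NF-kappaB targets in other cells, 11 were tested. After KA 8 rose and 3 fell (median 0.94), where 35.2% of all tested genes were called higher and 37.6% lower. After OGD 1 fell and none rose (median -0.09), where 17.6% of all tested genes were called higher and 20.5% lower. Gadd45b, a stress gene that many pathways induce, was 5.54 ± 0.985 CPM in KA control and 166 ± 14.9 CPM in KA. Ptgs2, the inducible cyclooxygenase and also an activity-regulated neuronal gene, went from 1.51 ± 0.255 to 39.4 ± 0.138 CPM. Ier3, an early response gene, changed by 2.42 on the log2 scale after KA and by -0.47 after OGD. These genes were also lower in KA control than in OGD control, with log2 differences of -4.27 for Gadd45b, -3.96 for Ptgs2 and -2.05 for Ier3. The 3 targets that fell after KA were Bcl2l1, Xiap and Sod2, with log2 fold changes of -1.13, -0.69 and -0.48. The chemokine and cytokine genes of the list (Il6, Ccl2, Ccl3, Ccl4, Ccl5, Ccl20, Cxcl1, Cxcl2 and Cxcl10) had too few counts to test, with group means of at most 0.46 CPM.

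The genes whose profile over the 12 libraries lay closest to that of Nfkbia, by the root-mean-square difference of centred log2 CPM among 9266 genes with a mean of at least 2 on that scale, were Ccnd2, F2r and Vgll4 (0.10, 0.14 and 0.14, against an SD of 0.81 for Nfkbia itself). Ccnd2, encoding cyclin D2, was at 244, 203, 168 and 633 CPM in OGD control, OGD, KA control and KA, and F2r, encoding the thrombin receptor, at 45.8, 36.1, 27.0 and 93.7 CPM. For Nfkb1 the nearest were Ccdc88c, Parp8 and Ranbp10 (0.074, 0.081 and 0.084, against an SD of 0.27). Likeness of this kind follows the 4 group means and was not tested.

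The members lie on 8 chromosomes (mm10, GENCODE M21). Nfkbia is at chromosome 12, 55489410 to 55492647, Rel at chromosome 11, 23736847 to 23770970, Nfkbie at chromosome 17, 45555703 to 45563169, and Tnfaip3 at chromosome 10, 19000910 to 19015657. Rela (5637483 to 5648130) and Nfkb2 (46304320 to 46312385) share chromosome 19, Nfkbib (28758251 to 28767512) and Relb (19606217 to 19629438) share chromosome 7, Nfkb1 is at chromosome 3, 135584655 to 135691547, and Nfkbiz at chromosome 16, 55811375 to 55838899. All are protein-coding, and counts cover their exons as the authors' annotation defined them.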

How the data were processed

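RNA was sequenced in 12 libraries of 4 groups. Per the labels, total RNA was column-purified and TruSeq RNA v2 libraries were made, a kit that does not mark strand. The authors deposited whole-number, unnormalized counts for each gene symbol. The submitters' processing notes name HTSeq 0.6.1, TopHat 1.4.1, bcl2fastq 1.8.4 and the build mm10, with settings and annotation not given in the sources used here. Columns headed OGT were matched to titles reading OGD.

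Tests used edgeR 4.0.16 under R 4.3.3, with genes kept by filterByExpr (minimum count 10, minimum total 15), TMM scaling, and the quasi-likelihood test in 1 fit of the 4 group means (8 residual degrees of freedom; 13139 genes), Benjamini-Hochberg adjusted over all tested genes, called under 0.05. The code was tested on simulated data. CPM is TMM scaled; SE comes from the test statistic. At these totals 1 count equals 0.0473 to 0.0777 CPM. Replicates were separable from counting noise (chi-square per degree of freedom 1.48 to 6.19).

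Members and lists were chosen with earlier results of these data known. All 10 members are named. From each pathway list up to 3 genes with the smallest adjusted p per comparison could be named. Target genes too low to test, and those that fell after KA, are named after their values were seen. Alternatives were DESeq2 1.42.0, its size factors, other filters, a replicate block, fits of the compared groups only, the other experiment's control and leaving out each library; library totals without TMM were added after seeing the data. No library was left out.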

Additional observations from a re-analysis of the deposited data

Results flagged for a closer look

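For the 6 members counted in every group the response to KA differed from the response to OGD by the test of the difference itself (log2 fold change in KA minus that in OGD, edgeR, adjusted over all genes; 68.2% of tested genes passed). For Rel it was 2.93 (adjusted p = 9.28e-18) and for Nfkbia 2.39 (adjusted p = 5.69e-20). It was 1.14 for Nfkbie (adjusted p = 1.55e-05), 0.76 for Rela (adjusted p = 7.24e-08), 0.75 for Nfkb1 (adjusted p = 1.73e-06) and 0.70 for Nfkbib (adjusted p = 1.03e-08). These 6 kept their direction and call when each of the 12 libraries was left out in turn. Tnfaip3 also passed, at 1.87 (adjusted p = 0.0319), but it has 63 counts in all and entered the test only through the KA libraries, where it is high. Its call was lost with DESeq2 (adjusted p = 0.109), without the count filter (0.0752), with library totals (0.0707) and in 4 of the 12 fits that left out a library. For Rel, Nfkbia, Nfkbib, Nfkbie and Nfkb1 the difference includes their lower level in KA control. Their log2 differences from OGD control were -2.05, -0.75, -0.33, -0.43 and -0.25.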

How the results depend on the processing

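For KA against KA control, the 7 tested members kept their direction and their call under every alternative that could test them. Tnfaip3 could not be tested under the stricter filter or in the fit of KA and KA control alone, which left 6. Against the other experiment's control OGD had 4 members called in place of 2, all higher. Of these Nfkbia (0.44 on the log2 scale), Nfkbib (0.28) and Rel (2.04) had reversed in sign, as had the uncalled Nfkb1 (0.17) and Rela (0.12), while Nfkbie kept its sign. The near-zero OGD values of uncalled members also changed sign: Rel was 0.0066 without the count filter, 0.0014 in the fit of the compared groups and -0.0668 to 0.0527 over the left-out libraries, and Rela -0.0935 to 0.0573 over these. With library totals in place of TMM, an added setting, OGD gave 0.0423 for Rel and 0.0216 for Rela, and the control difference of Rela was 0.0356. That setting shifted the median of all genes by -0.258 for KA and 0.186 between controls, and calls after KA split into 3165 higher and 6739 lower against 4622 and 4936, after OGD into 3130 and 2255 against 2315 and 2694. For the difference of responses they split into 2971 and 6396 against 4441 and 4516, and between controls into 6155 and 3132 against 4532 and 4490. The members stayed higher after KA (0.38 for Nfkbib to 2.67 for Rel), above that shift. Between controls, 3 members in place of 5 were called under it, and 3 to 5 over the left-out libraries. Nfkbie lost its call between controls with DESeq2 (adjusted p = 0.0572) and with library totals (edgeR adjusted p = 0.192). It also lost it without OGD control replicate 1 or 2 or KA control replicate 1 or 2 (0.0507 to 0.0923). Nfkb1 lost its call with library totals (log2 difference -0.0677, edgeR adjusted p = 0.5) and without KA control replicate 2 (0.0527). Rela gained a call with DESeq2 size factors, the stricter filter and the fit of both control groups alone (0.0152 to 0.0496).

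Replicate numbers pair libraries by number only: same-numbered libraries had correlations of their deviations of 0.026 to 0.046 in the OGD experiment, where each library correlated best with its own number, and of -0.048 to -0.038 in the KA experiment, where none did. With a replicate block, 4834 genes were called for OGD, 9483 for KA, 8877 for the difference and 8912 between controls, and member calls were the same (2, 7, 7 and 5). The causes of these changes were not tested. Nfkbiz, Nfkb2, Relb and Tnfaip3 had too few counts for a precise value at these depths.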
